A study of Homo sapiens with 28 samples.

Results

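Described here are 10 genes of mouse bone marrow, out of 21883 protein-coding genes, that were selected on measured marks: a silencing mark at a gene end in WT mice gave way to an activating mark in DKOITD mice. The mice come from a study of leukaemia initiated by mutations of Ezh2 and Runx1. The genes are Nrp1 and Lrfn1, which encode cell-surface proteins, the GTPase gene Rnd3 and the scaffold gene Prag1, the membrane and vesicle adaptors Bin1, Stxbp6 and Apba1, the protease gene Capn2, and Niban2 and Ccdc102a. The values that chose them were peaks within 1 kb of either gene end: at least 200 bp under trimethylated lysine 27 of histone H3 (H3K27me3) in 3 of 3 WT but 0 of 5 DKOITD mice, and as many under the acetylated form (H3K27ac) in each of 5 DKOITD mice but in 0 of 3 WT mice. In all, 66 genes met the first condition (0.302% of 21883), 82 met the second (0.375%), and 11 met both (0.0503%). The 11th gene was Irf5, an interferon regulatory factor, which is not on the list. Because the mice were used to pick the genes, the presence of each mark at these ends is a description and carries no test. The choice also confined at least a part of each mark to within 1 kb of a gene end, which in itself makes overlap likely. What it did not fix is the exact bases under each mark, and how many of the acetylated ones had been methylated. That question is the subject here.

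H3K27me3 is written by Polycomb repressive complex 2, in which EZH2 is a catalytic subunit, and is found at silenced developmental genes. H3K27ac is written by acetyltransferases such as p300 and CBP and is found at active promoters and enhancers. A single lysine cannot carry both groups, so a nucleosome tail has either the one or the other. In a population of cells both marks can still be found at the same bases, on different tails or in different cells.

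Chromatin immunoprecipitation sequencing (ChIP-seq) of both marks was available for 8 C57BL/6 mice, 16 libraries in all. The WT mice (WT1, WT2 and WT3) carried floxed alleles of both genes, Ezh2(fl/fl) and Runx1(fl/fl), with no Cre at Rag1(+/+) and an unaltered receptor gene, Flt3(+/+). The DKOITD mice (DKOITD48, DKOITD52, DKOITD53e, DKOITD83 and DKOITD185) had the same floxed alleles, Ezh2(fl/fl) and Runx1(fl/fl), together with Rag1(Cre/+) and Flt3(ITD/+). Their Cre recombinase is driven by Rag1, a gene switched on in lymphoid-primed progenitors, and their Flt3 receptor gene carries an internal tandem duplication. The peaks do not show whether the floxed exons were deleted in the cells measured, and the labels give no ages. Cells expressing Kit had been enriched from the WT marrow with CD117 beads, whereas total marrow was taken from the DKOITD mice, so genotype and cell preparation cannot be told apart in anything that follows. In such bulk samples a change per cell and a change in which cells are present cannot be told apart either.

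The libraries held 6515614 to 7072997 fragments (WT) and 9435546 to 11458360 fragments (DKOITD) for H3K27ac, and 2766339 to 3994483 and 3343831 to 6411696 for H3K27me3. H3K27me3 peaks numbered 7956 to 17225 in the WT mice, 15529 in DKOITD52 and 25557 in DKOITD185. The other 3 DKOITD mice had 1891 to 3303. Of 3160 genes with H3K27me3 at an end in all 3 WT mice, 56.1% had none in DKOITD48, 68.9% in DKOITD53e and 50.4% in DKOITD83, against 2.85% in DKOITD52 and 5.82% in DKOITD185. Only 67 of the 3160 (2.12%) lacked it in both DKOITD52 and DKOITD185, so asking for its absence in the other 3 mice as well, which gave the 66 genes above, removed only 1 more. Of 11868 genes with no H3K27ac at an end in WT, between 1.54% (DKOITD53e) and 5.43% (DKOITD185) carried it in a DKOITD mouse.

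Some lists of marrow cell-type markers differed between the groups. H3K27ac lay at an end of 5 to 8 of 12 dendritic-cell genes in the DKOITD mice and of 3 to 4 in WT, with a summed length of 6.35 to 12.3 kb against 2.86 to 4.29 kb. The dendritic genes Batf3, Itgax, Clec9a and Cd74 carried it in no WT mouse and in at least 1 DKOITD mouse, and Siglech, Zbtb46, Ly6d and Ccr9 carried it in no mouse of either group. Granulocyte genes went the other way (0 to 6 of 10 in DKOITD and 7 to 10 in WT, 0.003 to 6.55 kb against 9.92 to 15.1 kb). Erythroid genes did so too (1 to 2 of 10 against 4 to 7, and 0.474 to 1.33 kb against 2.64 to 5.76 kb). The stem and progenitor, monocyte, mast cell, B-lineage and T-lineage lists had overlapping ranges. The whole H3K27ac lists held 14326 to 22799 peaks in WT and 8825 to 19532 in DKOITD mice. The share of all genes with H3K27ac at an end is not given beside these marker counts, so they are description only. The part of cell makeup in the exchange at the 10 genes was not tested.

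The gene table gives no strand, so positions are counted from the gene end that bore the marks, positive into the gene. At all 10 genes, both marks lay at the same end. H3K27me3 of WT mice was at the other end of none of the 10, and H3K27ac of DKOITD mice at the other end of 1, Nrp1, with a 213-bp peak in DKOITD185 alone. No other protein-coding gene lay within 2 kb of a marked end. The nearest were Gmfg, 3.66 kb from that of Lrfn1, and Adgrg5, 3.71 kb from that of Ccdc102a, and neither lost H3K27me3 or gained H3K27ac by the selection rule.

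**Figure D1:**
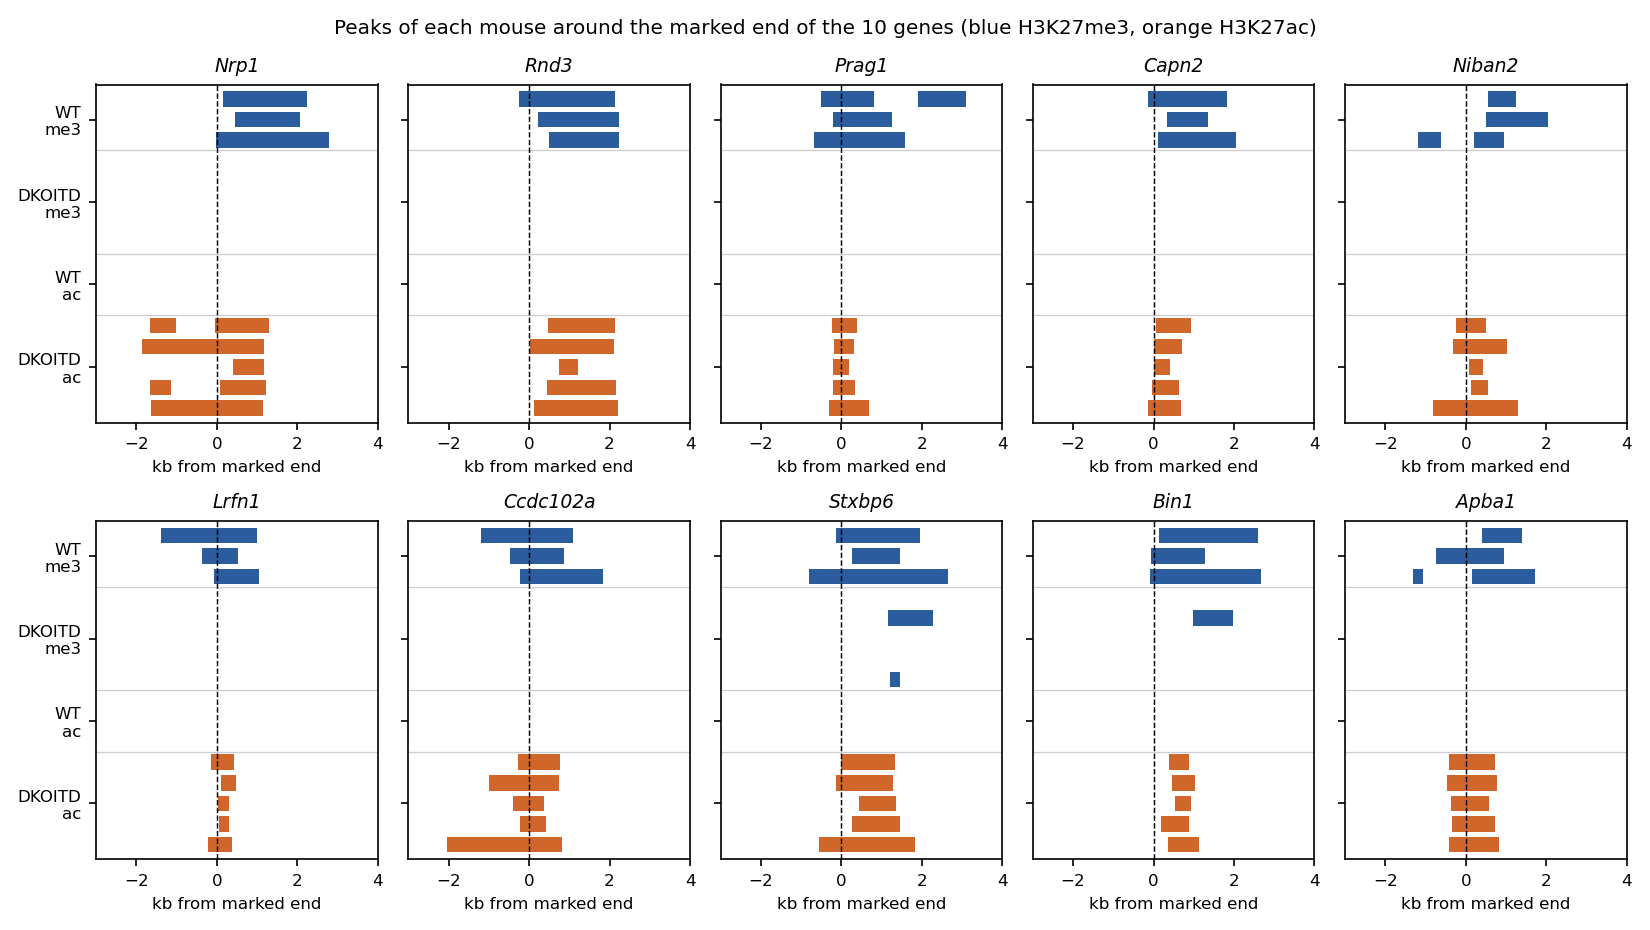
Peaks of each mouse around the marked end of the 10 genes, with distance from that end in kb on the horizontal axis (positive into the gene) and a row per mouse (from the top WT1 to WT3, then DKOITD48, DKOITD52, DKOITD53e, DKOITD83 and DKOITD185, for each mark). H3K27me3 bars (blue) fill the WT rows and H3K27ac bars (orange) the DKOITD rows, and the orange bars overlap the blue ones at every gene, least at Niban2 (46 bp shared).

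A base was called WT-methylated when it lay under an H3K27me3 peak in at least 2 of 3 WT mice. By that definition 734 to 2654 bp per gene were WT-methylated, a median of 2.84% of the gene plus 5 kb either side (range 0.907% to 7.04%). A gene counted as exchanging the marks at the same bases when at least 200 bp were WT-methylated and under H3K27ac in at least 3 of 5 DKOITD mice. Of the 10 genes, 9 did so, all but Niban2. The rate over all genes with at least 200 WT-methylated bp was 7.83% (394 of 5033), but most of those genes had less than 200 bp of shared H3K27ac anywhere in the window. Among the 1572 genes with at least 200 bp of each, 394 (25.1%) shared 200 bp. Those genes needed the marks only somewhere in the window, whereas the 10 were selected to have both within 1 kb of a gene end. The rates are therefore not like for like, and the higher one of the 10 follows at least in part from their selection. Each of the 10 genes had a single shared stretch, of 46 to 1679 bp.

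Nrp1 encodes neuropilin-1, a co-receptor for semaphorins and vascular endothelial growth factor at the cell surface (mm10 chromosome 8, 128358591 to 128505476, marked at the lower coordinate). H3K27me3 covered 844, 550 and 1023 bp of the 2000 bp around that end in WT1, WT2 and WT3. H3K27ac covered 1039, 2000, 592, 916 and 2000 bp in DKOITD48, DKOITD52, DKOITD53e, DKOITD83 and DKOITD185, the order used for all genes below. The methylated stretch ran from between −23 and 450 bp to between 2066 and 2790 bp, and the acetylated one ended at 1147 to 1285 bp in all 5 mice. The bases that both occupied were chromosome 8, 128358747 to 128359767, 1021 bp long, and 698 bp held with all 3 WT and all 5 DKOITD mice. Acetylation also lay outside the gene in 4 of 5 mice, where no WT mouse had methylation beyond −23 bp. It reached −1851 bp in DKOITD52 and −1634 bp in DKOITD185 without a break, and formed a separate peak from −1671 to −1026 bp in DKOITD48 and another, from −1672 to −1147 bp, in DKOITD83.

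Lrfn1 encodes a leucine-rich adhesion protein known from synapses (chromosome 7, 28451893 to 28468242, lower end). Methylation covered 1994, 902 and 1058 bp in the WT mice and acetylation 583, 379, 268, 252 and 578 bp in the DKOITD mice. These acetylated stretches were the shortest of the 10 genes by median, and every acetylated base, in all 5 mice, was WT-methylated. They took up 30.2% ± 11.8 (SD, n = 5) of the methylated bases. The shared stretch was 28451927 to 28452262, 336 bp.

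Rnd3 encodes an atypical small GTPase that stays bound to GTP and opposes the kinase ROCK1 (chromosome 2, 51130439 to 51149111, higher end). Methylation covered 1256, 782 and 514 bp around the end in WT and acetylation 532, 975, 255, 548 and 874 bp in DKOITD. Both marks ran on well beyond the 1 kb window used for selection. Methylation ended 2148, 2235 and 2244 bp inside the gene, and acetylation ended at 2130, 2120, 2170 and 2220 bp in DKOITD48, DKOITD52, DKOITD83 and DKOITD185, and at 1226 bp in DKOITD53e. In 7 of the 8 mice the inner edge thus lay between 2120 and 2244 bp. In those 4 DKOITD mice acetylation took up 82.4%, 94.3%, 85.2% and 99.3% of the methylated bases, and in DKOITD53e 23.9%. The shared stretch, 51146981 to 51148659, was 1679 bp long, the longest of the 10.

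Prag1 encodes pragmin, a pseudokinase scaffold that binds Rnd proteins (chromosome 8, 36094827 to 36147787, lower end). Methylation covered 1326, 1205 and 1672 bp in WT and acetylation 619, 508, 414, 548 and 986 bp in DKOITD. The acetylated stretch began at −302 to −191 bp and ended at 196 to 683 bp, while methylation began at −513, −205 and −672 bp in WT1, WT2 and WT3 and ended at 812 to 1584 bp. It thus lay inside the methylated stretches of WT1 and WT3, and in 4 of 5 DKOITD mice it began farther out than that of WT2. The shared stretch was 36094610 to 36095159, 550 bp.

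Capn2 encodes the catalytic subunit of m-calpain, a calcium-dependent protease (chromosome 1, 182467253 to 182517610, higher end). Methylation covered 1140, 665 and 891 bp and acetylation 878, 718, 397, 653 and 802 bp. All 5 acetylated stretches started near the gene end, between −127 and 52 bp, whereas methylation started at −140, 335 and 109 bp and ran to 1361 bp or beyond. The shared stretch, 182516936 to 182517501, was 566 bp, but only 72 bp held with all 8 mice.

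Bin1 encodes an adaptor with a membrane-bending BAR domain (chromosome 18, 32376618 to 32435740, lower end). Methylation covered 852, 1068 and 1098 bp and acetylation 516, 537, 408, 704 and 651 bp. Acetylation took up the smallest mean share of methylated bases of the 10 genes, 22.5% ± 5.66 (SD, n = 5), with methylation reaching 2585 and 2673 bp in WT1 and WT3 and the acetylated stretch ending at 887 to 1134 bp. The shared stretch was 32376996 to 32377554, 559 bp.

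Stxbp6 encodes amisyn, which binds syntaxin and restrains vesicle fusion (chromosome 12, 44852484 to 45075118, higher end). Methylation covered 1142, 736 and 1803 bp and acetylation 1011, 1136, 565, 728 and 1552 bp. The shared stretch, 45073770 to 45075129, was 1360 bp, and 849 bp of it held with all 3 WT and all 5 DKOITD mice, the longest such core of the 10 genes. In DKOITD48, DKOITD53e and DKOITD83 all H3K27ac of the gene was on WT-methylated bases.

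Apba1 encodes the adaptor Mint1, which binds the amyloid precursor protein and the fusion protein Munc18 (chromosome 19, 23758806 to 23949598, lower end). Methylation covered 587, 1683 and 847 bp and acetylation 1143, 1240, 947, 1064 and 1246 bp. The acetylated stretch had nearly the same borders in every DKOITD mouse, starting at −461 to −330 bp and ending at 568 to 834 bp, while methylation started at 413, −736 and 153 bp in the WT mice. The shared stretch was 23758959 to 23759543, 585 bp.

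Ccdc102a encodes a coiled-coil protein (chromosome 8, 94902869 to 94918098, higher end). Methylation covered 2000, 1343 and 1235 bp and acetylation 1057, 1735, 794, 632 and 1820 bp. The marks overlapped over 94917364 to 94918508, 1145 bp, which was all of the stretch acetylated in at least 3 mice. In DKOITD185 acetylation also extended outside the gene to −2031 bp, and methylation in WT mice reached −1190 bp at most.

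Niban2 encodes a pleckstrin homology domain protein of cell contacts (chromosome 2, 32876134 to 32925253, lower end). Methylation covered 450, 490 and 1124 bp and acetylation 759, 1321, 339, 429 and 1825 bp. Here the methylation of WT1 and WT2 and the acetylation of DKOITD48, DKOITD53e and DKOITD83 lay almost side by side. Methylation began 550 bp inside the gene in WT1 and 510 bp inside in WT2. Acetylation ended at 510, 420 and 555 bp in DKOITD48, DKOITD53e and DKOITD83, and at 1018 and 1298 bp in DKOITD52 and DKOITD185. In WT3 methylation lay on both sides of the end, in a peak from −1179 to −622 bp and another from 210 to 954 bp. The latter overlapped the acetylated stretch of every DKOITD mouse. The acetylated share of WT-methylated bases, which need at least 2 WT mice, was 0.136%, 69.3%, 0%, 6.27% and 100%. Only 46 bp (32876644 to 32876689) were shared. With any single WT mouse enough to call a base methylated, all 10 genes met the 200-bp rule.

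Per mouse, the mean over the 10 genes of the acetylated share of WT-methylated bases was 43.6% in DKOITD48, 49.6% in DKOITD52, 24.6% in DKOITD53e, 36.9% in DKOITD83 and 61.0% in DKOITD185. The DKOITD mean was 43.1% ± 13.6 (SD, n = 5). It was 0% in each of WT1, WT2 and WT3. The selection required less than 200 bp of H3K27ac at the gene ends in every WT mouse and at least 200 bp in every DKOITD mouse. This contrast between the groups was therefore largely set by the selection and is a description. Taken from the other side, 65.8%, 47.7%, 76.6%, 75.2% and 47.3% of a gene's H3K27ac bases were WT-methylated ones, 62.5% ± 14.3 (SD, n = 5). The mice with most H3K27ac over the 10 windows, DKOITD185 (35.0 kb summed) and DKOITD52 (25.8 kb), had the lowest of these shares, and those with least, DKOITD53e (6.19 kb) and DKOITD83 (9.58 kb), the highest. DKOITD48 had 17.1 kb.

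**Figure D2:**
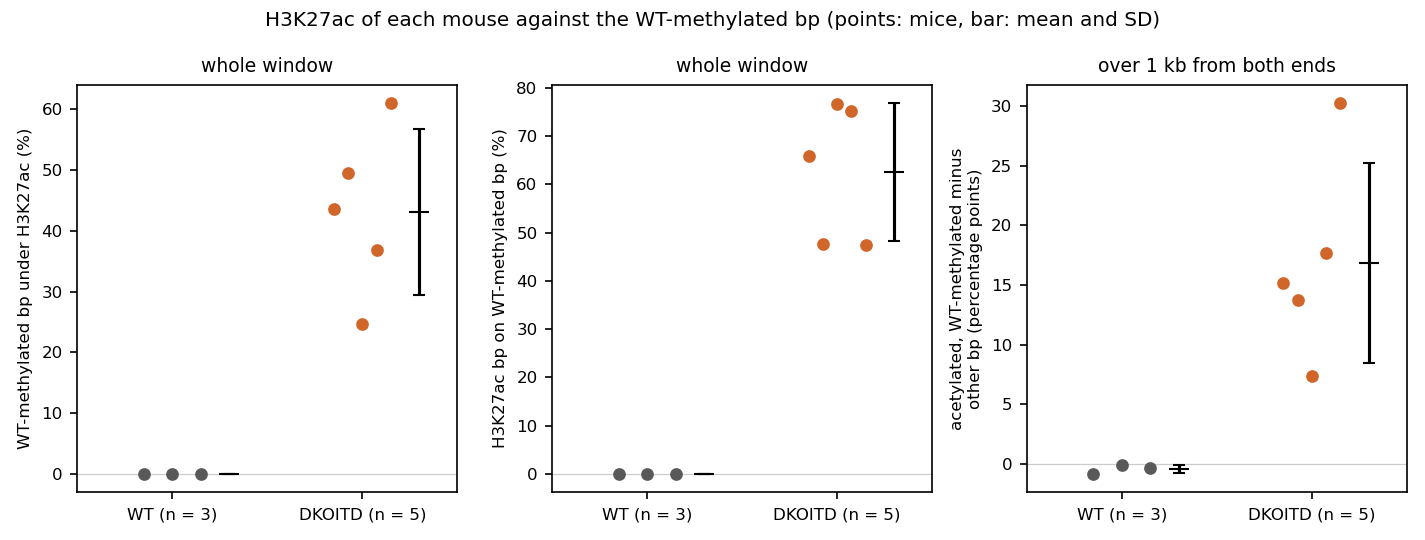
H3K27ac of each mouse set against the WT-methylated bases, as means over the genes in percent (left and middle) or percentage points (right), where points are mice and bars give the mean and SD. The WT mice sit at 0% in the left and middle panels, and the 5 DKOITD mice at 24.6% to 61.0% on the left, 47.3% to 76.6% in the middle and 7.40 to 30.3 points on the right. The contrast between the groups follows at least in part from the selection of the genes and carries no test.

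The selection used only bases within 1 kb of a gene end, but the WT-methylated bases farther away mostly continue the same peaks, so their values are a description and carry no test. Such bases lay in 9 of 10 genes, and a few of these genes carried the acetylation. At Prag1, Capn2, Ccdc102a and Apba1, 4 of the 9, none was acetylated in any DKOITD mouse. At Rnd3, Stxbp6 and Nrp1 some were acetylated in all 5 mice: 18.4% to 98.8% at Rnd3, 29.3% to 85.4% at Stxbp6 and 11.8% to 22.8% at Nrp1. At Bin1 (0% to 8.51%) and Niban2 (0% to 100%) this was so only in DKOITD52 and DKOITD185. As means over the 9 genes, 16.5%, 16.01%, 7.48%, 17.9% and 33.8% were acetylated in the 5 DKOITD mice, against 1.26%, 2.27%, 0.0820%, 0.174% and 3.58% of the other bases of the same windows. The difference was 16.9 percentage points ± 8.40 (SD, n = 5). With WT1 or WT3 left out, which changes the bases called methylated and leaves 7 genes, it was 26.3 and 29.5 points. In WT1, WT2 and WT3 the same difference was −0.856, −0.141 and −0.344 points. Beyond 2 kb from both ends, where 4 genes had WT-methylated bases (Nrp1, Rnd3, Bin1 and Apba1), it was 12.4 points in the DKOITD mice. There only the methylated bases of Rnd3 were acetylated, and not in DKOITD53e.

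The profile over all 10 genes shows methylation centred deeper in the gene than acetylation. H3K27me3 of WT mice covered most genes, 9.67 of 10 on average, at 600 to 800 bp inside, and H3K27ac of DKOITD mice covered most, 8.0 of 10, at 300 bp. At 1500 bp the averages were 5.33 and 1.0 genes. At −500 bp, outside the gene, they were 2.0 and 1.2. The inner edge of methylation was deeper in every WT mouse than that of acetylation in every DKOITD mouse at 7 of 10 genes, the exceptions being Rnd3, Niban2 and Stxbp6. By medians it was deeper at all 10, by 105 to 1649 bp. The outer edges were not separated in this way except at Bin1, where methylation reached farther out. H3K27ac of WT mice covered no base within 5 kb of a marked end. Close to the end this was largely set by the selection.

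**Figure D3:**
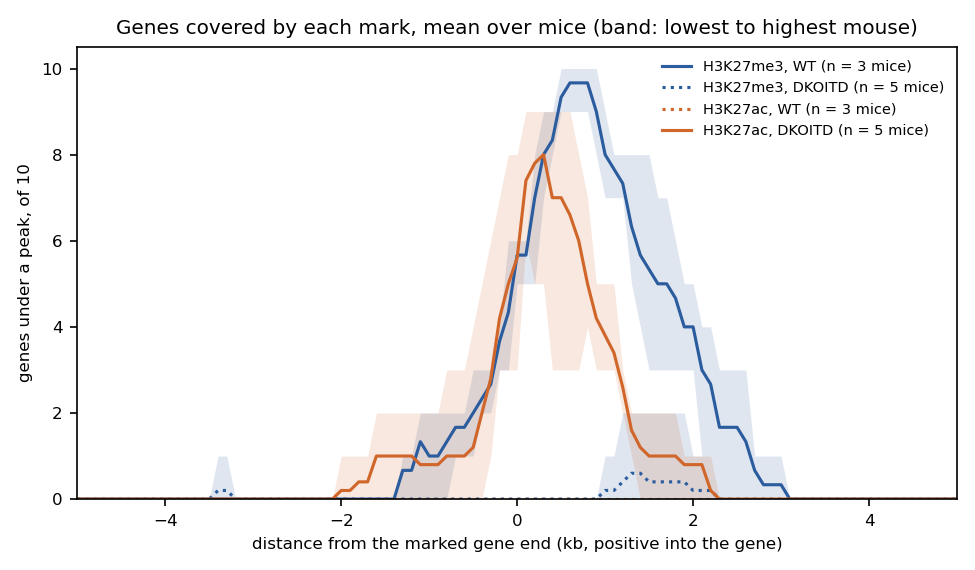
Number of the 10 genes under a peak at each distance from the marked end (kb, positive into the gene, in steps of 100 bp), where lines are means over mice and bands span the lowest to the highest mouse. WT H3K27me3 (solid blue) peaks at 9.67 genes 600 to 800 bp inside the gene, DKOITD H3K27ac (solid orange) at 8.0 genes 300 bp inside, and the dotted lines for the opposite combinations stay at 0.6 genes or less. Close to the end, the low dotted lines were largely set by the selection.

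The authors' scores show how strongly each mark was called. MACS gives every peak a −log10 q-value, where q is the false discovery rate of the peak against the input. The strongest H3K27me3 peak at the marked end scored 1.12 to 3.43 in WT mice, with a median of 2.10 over 30 pairs of a gene and a mouse. None of the 30 reached 5, and 10 were below 2. They were nevertheless ordinary for their lists: the median one was stronger than 62.1% of the peaks of its own library. The H3K27ac peaks of DKOITD mice scored 1.23 to 16.6, with a median of 5.01 over 50 pairs, and 25 reached 5. The median one was stronger than 49.9% of its library. These end peaks also differed in breadth, with a median length of 1721 bp for H3K27me3 and 840 bp for H3K27ac. Over the whole lists the median lengths overlapped, at 785 to 1054 bp for H3K27me3 in WT and 660 to 990 bp for H3K27ac in DKOITD mice. Scores of different libraries depend on depth and are not compared as levels.

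Apba1 had the highest single H3K27ac scores, 15.2 in DKOITD52 and 16.6 in DKOITD185, with 6.47, 5.08 and 5.39 in DKOITD48, DKOITD53e and DKOITD83. Its H3K27me3 peaks in WT had the lowest median of the 10 genes, at 1.64, 1.54 and 2.13. Ccdc102a had the highest median H3K27ac score, 10.23, and scores of 10.26, 12.98, 2.90, 10.23 and 7.95. Stxbp6 had the highest median H3K27me3 score, with 3.42, 3.23 and 3.21 in the 3 WT mice. Bin1 was the weakest for H3K27ac, with 2.87, 2.97, 1.23, 2.07 and 2.47. Nrp1 followed with a median of 3.003 for H3K27ac.

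With only peaks of −log10 q of at least 5 kept, the selection rule was met by 0 of the 10 genes for H3K27me3 loss and by 1 for H3K27ac gain. With every list of a mark reduced to the same number of its strongest peaks, the counts were 0 and 6. The exchange as listed thus rested on weak H3K27me3 peaks in the WT libraries. At most of the 10 genes it also rested on H3K27ac peaks below a −log10 q of 5 in some DKOITD mice.

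**Figure D4:**
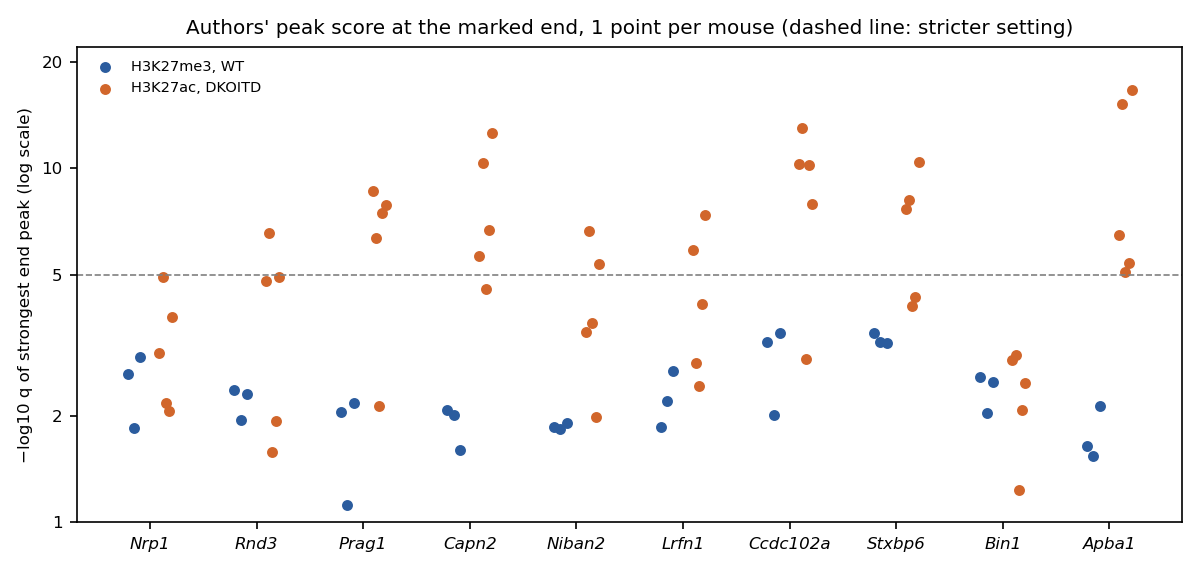
The authors' −log10 q of the strongest peak at the marked end of each gene (log scale), 1 point per mouse, for WT H3K27me3 (blue, n = 3) and DKOITD H3K27ac (orange, n = 5). All blue points lie between 1.12 and 3.43, below the dashed line at 5 that marks the stricter setting, and 25 of the 50 orange points reach it.

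Some H3K27me3 was left in the DKOITD windows. WT-methylated bases were still under H3K27me3 to 9.31% in DKOITD52 and 1.20% in DKOITD185, as means over the 10 genes, and to 0% in DKOITD48, DKOITD53e and DKOITD83. The 3 mice at 0% are those with the fewest H3K27me3 peaks, and DKOITD185 has the most of any mouse. In DKOITD52 a 1113-bp peak lay inside Stxbp6 and a 1004-bp peak inside Bin1, the latter reaching 19 bp into the end window. In DKOITD185 a 253-bp peak lay inside Stxbp6. Bases under both marks in the same mouse came to 428 bp in the DKOITD mice: 122 bp (DKOITD52) and 253 bp (DKOITD185) in Stxbp6 and 53 bp (DKOITD52) in Bin1. In WT mice there were 0. The selection allowed little H3K27me3 at the ends of these genes in any DKOITD mouse, and little H3K27ac there in any WT mouse. The low residual H3K27me3 and the short length under both marks were therefore set at least in part by the selection. They are a description and carry no test.

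Farther inside the genes the marks did not follow the pattern of the ends. Away from the marked ends there were 18 H3K27ac sites in 6 genes, of which 5 occurred only in WT, 11 only in DKOITD mice and 2 in both. Among the 11 was the 213-bp peak of Nrp1 in DKOITD185, which lay just outside the gene at its other end. Nrp1 had 4 sites only in WT: at 60.9 to 62.3 kb (WT1 and WT2), 74.3 to 75.1 kb (WT1), 93.3 to 93.9 kb and 95.2 to 96.5 kb (both WT1 and WT3). So in WT mice Nrp1 carried acetylation deep in the gene together with methylation at its end, and in DKOITD mice the deep sites had no peak. Bin1 had a similar site at 55.0 to 55.7 kb (WT1 and WT3), another at 20.3 to 24.2 kb in WT1 and 4 DKOITD mice, and a DKOITD-only site at 29.3 to 32.1 kb in 3 mice. Prag1 had a site at 27.1 to 28.6 kb in every WT mouse and in 4 of 5 DKOITD mice, the exception being DKOITD53e. Niban2 had 5 sites, all only in DKOITD mice, of which those at 5.16 to 7.78 kb and 17.9 to 21.1 kb were in DKOITD48, DKOITD52 and DKOITD185. Sites in Stxbp6 and Capn2 were in DKOITD52 and DKOITD185 only, the mice with the longest H3K27ac lists of their group. Apba1 alone had an inner H3K27me3 site common to all 3 WT mice, at 133.1 to 134.9 kb, also found in DKOITD52 and never acetylated. The gene table does not give exons, so the sites inside genes are not placed in an intron or exon.

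**Figure D5:**
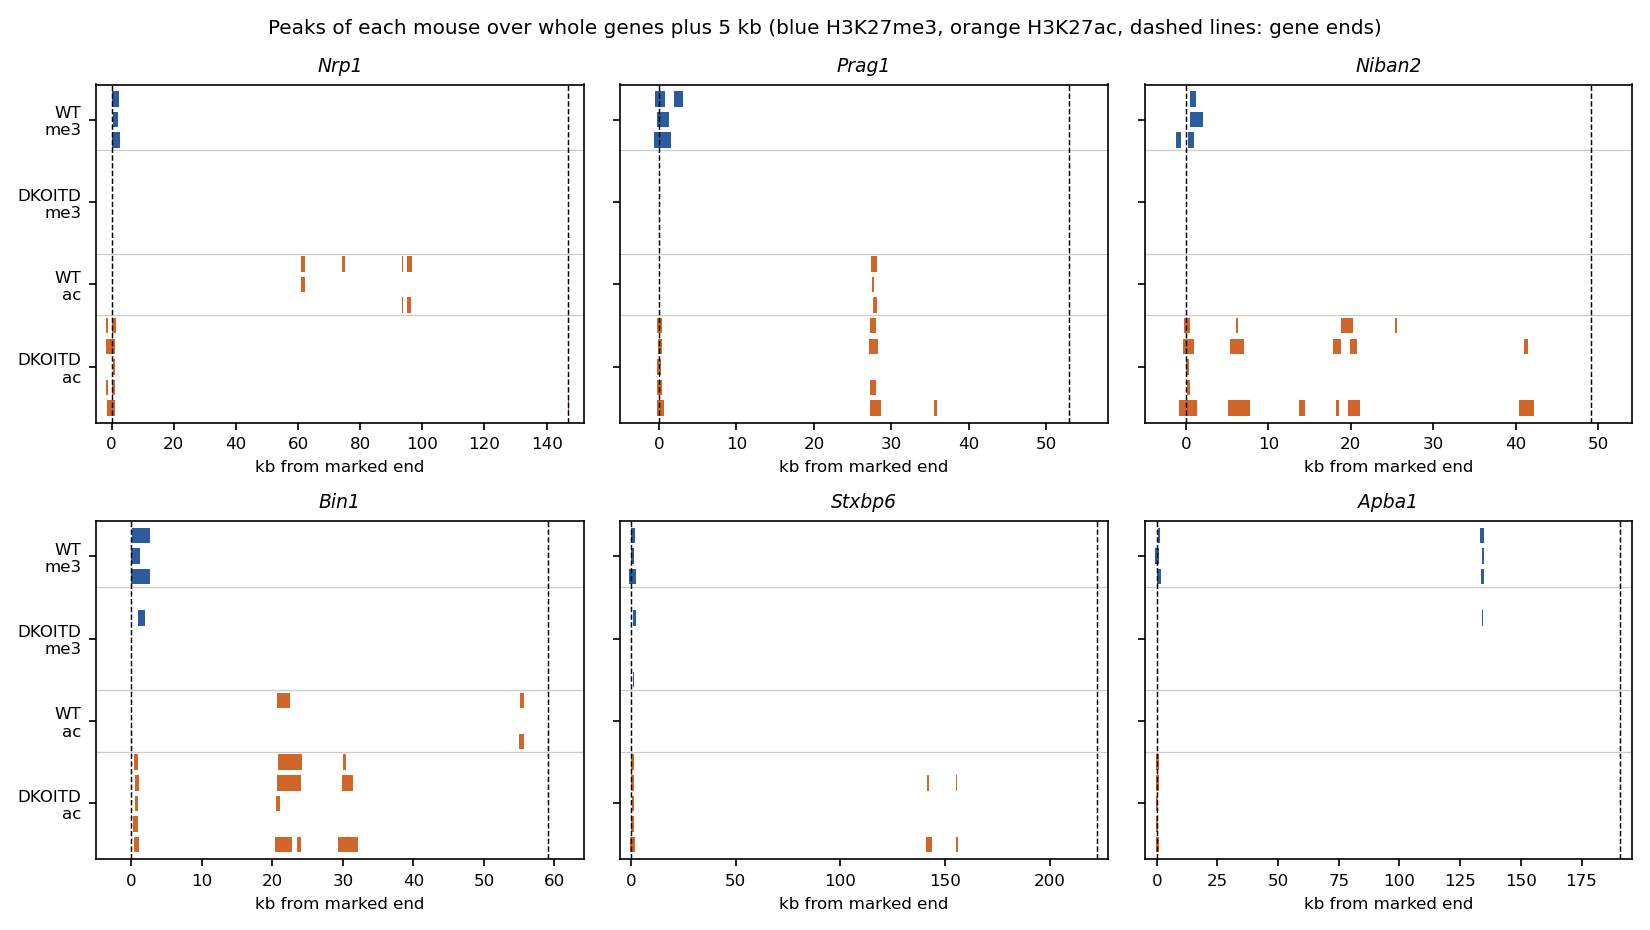
Peaks of each mouse over 6 of the genes plus 5 kb either side, with distance from the marked end in kb and dashed lines at both gene ends (rows as in the map of the marked ends, blue for H3K27me3 and orange for H3K27ac). The WT-only H3K27ac sites of Nrp1 lie at 60.9 to 96.5 kb, Prag1 has a site at 27.1 to 28.6 kb in 7 mice, and the inner H3K27me3 site of Apba1 lies at 133.1 to 134.9 kb.

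The 10 genes were set beside genes that met only part of the rule. Of the 55 genes that lost H3K27me3 without gaining H3K27ac at an end, 28 (50.9%) shared at least 200 bp, and these were 73.7% of the 38 that had both marks in the window. Of the 71 genes that gained H3K27ac without losing H3K27me3, 47 had WT-methylated bases and 38 of those (80.9%) shared 200 bp. The median share of acetylated bases that were WT-methylated was 69.5% for the 10 genes, 35.8% for the first group and 57.9% for the second. Of 876 genes with H3K27me3 at an end in all 8 mice, 28 (3.20%) shared 200 bp, or 23.0% of the 122 with both marks. The overlap at the same bases was thus not particular to the 10 genes, and since the groups were cut from the same marks no test was made between them.

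Just inside the selection rule were Lrfn1, with 252 bp of H3K27ac in DKOITD83, Rnd3, with 255 bp in DKOITD53e, and Niban2, with 450 bp of H3K27me3 in WT1. Just outside were 20 genes that matched in 15 of 16 libraries, 18 of them failing in H3K27me3 and 2 in H3K27ac. Irf8, a transcription factor of dendritic cells and monocytes, had 2000, 1865 and 2000 bp of H3K27me3 in WT and 1483, 1696, 691 and 1500 bp of H3K27ac in 4 DKOITD mice, but 0 in DKOITD53e. Chn2, Cdk14, Dip2c, Mycl, Metrnl, Tbc1d16 and Ccdc40 failed through H3K27me3 in DKOITD52 (245 to 975 bp). Tbc1d16 and Ccdc40 had the same H3K27ac bp in every mouse, so their peaks cannot be assigned to either gene. Wipf1 failed through 1217 bp of H3K27me3 in DKOITD185, and Raph1 through its absence in WT2.

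Relatives of the listed genes were looked at as families: neuropilins with plexins and semaphorins, relatives of Rnd3 with ROCK kinases, calpains, and the Niban, Lrfn, Stxbp, amphiphysin, Apba and pragmin families, 81 genes of which 80 were in the table. None of the 80 lost H3K27me3 or gained H3K27ac by the end rule. Only 0.302% and 0.375% of all genes did, so 0 of 80 says nothing particular about the families. H3K27ac was at an end in all 8 mice for 21 of them, and neither mark in any mouse for 13. H3K27me3 was at an end in all 3 WT mice for 20, beside 3160 of all 21883 genes. For the other counts the share over all genes is not given, so they are description only. Of the 40 with at least 200 WT-methylated bp, 4 met the same-base rule, against 7.83% of all genes: Plxnb2 (1159 bp), Sema4c (637 bp), Rhoq (579 bp) and Arhgap5 (290 bp). Nrp2, the closest relative of Nrp1, carried H3K27me3 in all 8 mice and no H3K27ac at its ends.

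For these relatives the length of gene plus 5 kb under each mark was compared between groups with limma, on log2(kb + 0.2), over all genes with enough peaks. For H3K27ac 98 of 11937 genes were higher in DKOITD (0.821%) and 378 lower (3.17%) at an adjusted p below 0.05. The split was 249 higher and 404 lower at equal peak numbers, and 42 and 53 with peaks of −log10 q of at least 5. Of 46 family genes tested, 1 was higher and 3 were lower, with a median difference of −0.48 on the log2 scale beside −0.45 over all genes. Plxnb2, a semaphorin receptor, rose from 0 kb in the WT mice to a mean of 2.10 kb (difference of 3.30 ± 0.50 SE on the log2(kb + 0.2) scale, limma adjusted p = 0.01). Lrfn2, the sister of Lrfn1, fell from 1.60 to 0.0524 kb (limma adjusted p = 0.00967). Sema3g, a secreted semaphorin, fell from 1.61 to 0 kb (limma adjusted p = 0.0128), and Bin3, a relative of Bin1, from 5.74 to 0.964 kb (limma adjusted p = 0.0153). All 4 calls were lost when any WT mouse was left out, which gave 0 calls each time.

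For H3K27me3 limma called 0 of 5693 genes higher (0%) and 0 lower, at an adjusted p below 0.05, and 378 had an unadjusted p below 0.05. Of 40 family genes tested, 3 had an unadjusted p below 0.05, and the smallest adjusted p was 0.177 (Rhoq). The family median was −1.24 on the log2 scale beside −1.20 over all genes. limma was also run on simulated lengths, built from genes with a mean above 1 kb, with the same noise for every gene and no zeros. There, 200 genes with a log2 change of 2 in either direction were recovered to 0% for H3K27me3 and to 100% for H3K27ac. Of the simulated H3K27ac calls 5.66% were false. The 0% means that a lack of H3K27me3 calls does not show a lack of change. Real lengths include zeros, so the 100% need not hold for them.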

How the data were processed

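ChIP-seq peak lists of H3K27me3 and H3K27ac from 3 WT and 5 DKOITD mice were analysed. Per the labels' protocols, Drosophila chromatin was added but its reads were not used, so no absolute level of a mark is known. The submitters' processing notes name Bowtie2 2.2.5, MACS2 2.0.10 and the build mm10. Broad peaks had been called by the authors in each library, per the file headers, with MACS 2.0.10.20131216 at a q-value cutoff of 0.05, all WT libraries against the input of WT1 and all DKOITD libraries against that of DKOITD48. The lists nevertheless reach down to a −log10 q of 1.00. The authors deposited for each peak a pileup, which is its signal (fragment coverage), the −log10 of its p-value and q-value, and its fold enrichment, the ratio of signal to local background. These served only to describe or filter peaks. The absence of a peak is not the absence of a mark.

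A RefSeq table of GRCm38 (mm10) gave the intervals of 21883 protein-coding genes, all 10 listed ones among them, without strand, exons or sequence. A planned search of promoter motifs was not run, as no sequence was used here. Peaks of a library were merged (Python 3.11.15, numpy 2.4.6, pandas 2.3.3) and compared base by base over each gene plus 5 kb either side. WT-methylated bases were those under H3K27me3 in at least 2 of 3 WT mice, and shared ones were also acetylated in at least 3 of 5 DKOITD mice. A sign-flip test planned for the difference away from the gene ends is not reported, as those bases mostly continue the peaks that selected the genes. limma 3.58.1 (R 4.3.3) was fitted on log2(kb + 0.2) over all genes with at least 200 bp in at least 3 of 8 libraries, with Benjamini-Hochberg adjustment, and was tested on simulated data. Alternatives were stricter peaks, equal peak numbers, other windows, base definitions and pseudocounts, and each mouse left out.

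The 10 genes, families and marker lists were chosen with earlier results of these data known. The named genes were the 10, family genes called by limma, up to 10 genes matching the pattern in 15 of 16 libraries, and neighbours. Other family genes, and values singled out among the 10, were chosen after their values were seen. Replicates are mice by their labels, and the human cell lines of the series were not used here.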

Additional observations from a re-analysis of the deposited data

How the results depend on the processing

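The acetylated share of WT-methylated bases away from the ends exceeded that of other bases under every alternative that gave a value (11.5 to 81.8 points, and 13.5 to 29.5 points without each mouse). As those bases mostly continue the peaks that selected the genes, the excess is a description under each of these settings too. Beyond 2 kb from both ends the excess rested on Rnd3 alone. The 81.8 points came from equal peak numbers, where only Stxbp6 kept WT-methylated bases. That setting also gave 90.0% for the acetylated share of methylated bases, 8.33% for the share of H3K27ac on methylated bases and 1 gene with exchange at the same bases, because 9 of 10 genes had no WT-methylated base left. With peaks of −log10 q of at least 5 none had any, so both shares that start from methylated bases gave no value, the share of H3K27ac on them was 0% and the gene count 0. Requiring 1000 shared bp left 4 genes. Without the 3 DKOITD mice with fewest H3K27me3 peaks, an alternative chosen after seeing the data, the share of H3K27ac on methylated bases was 47.5%. Leaving out each mouse gave 38.7% to 54.8%, 54.5% to 66.3% and always 9 genes for these 3 results. Family genes called for H3K27ac were 4 as planned, 0 with peaks of −log10 q of at least 5 and 0 to 6 without each mouse. Those called for H3K27me3 were 0 as planned and 4, all lower in DKOITD, at equal peak numbers. Over all genes, the H3K27ac calls fell to 8 to 24 higher and 5 to 44 lower without a WT mouse. For H3K27me3 the counts were 5 higher and 54 lower at equal peak numbers, 5 and 0 with the stricter peaks, and 0 and 43 for the gene plus 1 kb. No paired analysis was possible because WT and DKOITD mice share no replicate numbers. The WT H3K27me3 peaks at the listed genes were all of −log10 q under 5, and how far depth limits them was not tested.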
